A study of Mus musculus with 12 samples.

Results

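10 genes of the bone morphogenetic protein (BMP) pathway were examined in mouse embryonic stem cells (ESC) and neural progenitor cells (NPC) with and without knockdown of the histone demethylase Jarid1b. They were the ligands Bmp2, Bmp4, Bmp5 and Bmp7, the receptor Bmpr1b, the secreted antagonist Nog, the inhibitory SMAD gene Smad6, and the Id genes Id1, Id2 and Id3. Each was represented by the probe set that the platform annotation assigned to its single symbol, and all 10 were measured among 18784 genes. Each had 1 probe set, so no choice between probe sets was needed.

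BMP ligands are secreted growth factors of the TGF-beta superfamily. They bind type I and type II receptor kinases, which phosphorylate the receptor SMADs, and these enter the nucleus with Smad4 and switch on target genes. Id1, Id2 and Id3 are among the best-known direct targets. The Id proteins have a helix-loop-helix domain but no DNA-binding region, and they sequester the E proteins that proneural factors need. In mouse ESC, BMP with LIF sustains self-renewal through Id genes and holds back neural commitment, and in the neural tube BMPs pattern dorsal progenitors. Noggin, the product of Nog, binds BMP ligands outside the cell, and Smad6 blocks the signal inside it.

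The groups were Jarid1b shRNA in NPC, scrambled shRNA in NPC, Jarid1b shRNA in ESC and scrambled shRNA in ESC, with 3 Affymetrix arrays each. The ESC were of the feeder-independent line E14TG2a.4, grown in serum with LIF. Per the labels' protocols, ESC took up a lentiviral shRNA vector and passed puromycin selection, so the controls carry these treatments as well. The labels tell no Jarid1b constructs apart, and NPC were generated by a published differentiation protocol with no sorting step given. In such bulk samples fewer cells of a type and less RNA per cell cannot be told apart. Whether replicates were separate cultures is not stated in the labels. The p-values therefore reflect the spread among these arrays alone, which may be technical.

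Values are log2 array values. "Rose", "fell" and "called" mark an adjusted p under 0.05 in limma, with Benjamini-Hochberg adjustment over all 18784 genes. The targeted gene, listed as Kdm5b, had 10.38, 10.48 and 10.54 in knockdown NPC, against 11.24, 11.15 and 11.30 in control NPC. It had 10.64, 10.90 and 10.50 in knockdown ESC, against 12.25, 12.47 and 12.50 in control ESC. It changed by -0.76 ± 0.11 (SE) in knockdown NPC and by -1.73 ± 0.11 (SE) in knockdown ESC. Array medians lay between 7.70 and 7.79, and arrays of a group correlated across genes at 0.992 to 0.997. All 10 pluripotency markers measured fell from ESC to NPC in both knockdown and control cells, where 25.0% and 25.1% of all genes fell. Pou5f1 averaged 7.05 and 6.16 in knockdown and control NPC, against 12.48 and 12.66 in knockdown and control ESC. Not all were low in NPC, since Sox2 averaged 11.87 and 11.94 there, against 12.88 and 12.77 in ESC. The radial glia gene Fabp7 was at 12.48 and 12.31 in knockdown and control NPC and at 5.86 and 6.30 in knockdown and control ESC. All 9 neural progenitor markers measured rose between the states in both knockdown and control cells, where 23.8% and 23.5% of all genes rose.

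Id1, Id2 and Id3 all fell in knockdown ESC, by 2.10-fold, 1.89-fold and 2.87-fold. They were the only members to pass the test there, 3 of 10, where 5.21% of all genes were called, 1.84% higher and 3.37% lower. Id3, an antagonist of E proteins in many progenitor cells, had 8.48, 8.32 and 8.15 in knockdown ESC, against 9.27, 9.93 and 10.32 in control ESC. Every knockdown array lay below every control array, although the control arrays spread over more than 1 log2 unit. Groups did not overlap, in either direction, for 24.2% of all genes in this comparison. The change was -1.52 ± 0.21 (SE, adjusted p = 0.00298).

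Id1, which acts with LIF signalling in ESC self-renewal, had 9.19, 9.63 and 9.52 in knockdown ESC, against 10.12, 10.52 and 10.90 in control ESC. The groups did not overlap, and the change was -1.07 ± 0.21 (SE, adjusted p = 0.0122). Without control ESC replicate 3, the array with the highest Id1, the change was -0.88 and the call was lost (adjusted p = 0.0697). Id2, the member of the family with a wide role in neural and lymphoid development, had 11.0, 11.11 and 10.57 in knockdown ESC, against 11.53, 11.94 and 11.95 in control ESC. Again the groups did not overlap, as for 24.2% of all genes, with a change of -0.92 ± 0.16 (SE, adjusted p = 0.00762). In all 3 genes control ESC replicate 1 was the lowest of the control arrays. The fourth family member, Id4, was not called in knockdown ESC (0.15 ± 0.12, SE).

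**Figure D1:**
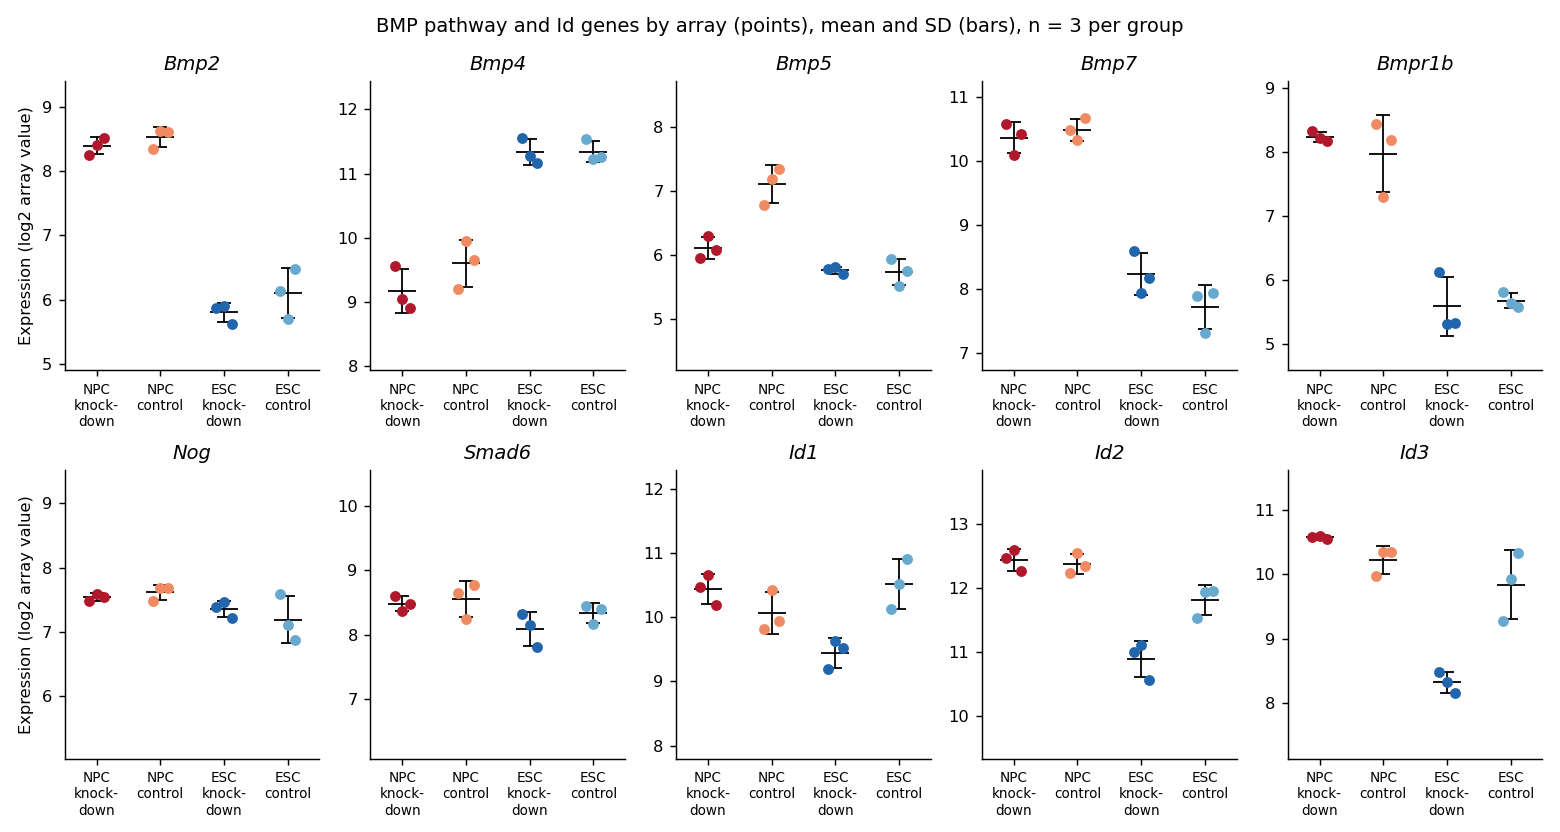
Log2 array value of each gene (vertical axis, each panel spanning the same number of log2 units) in the 4 groups (horizontal axis). Points are the 3 arrays of a group, and bars give the mean and SD. For Id1, Id2 and Id3 the 3 knockdown ESC arrays sit below all control ESC arrays, while for Bmp5 the 3 knockdown NPC arrays sit below all control NPC arrays. Knockdown and control groups did not overlap, in either direction, for 24.2% of all genes in ESC and 14.2% in NPC.

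RefSeq promoter sequences, build GRCm38.p6, were matched for 6 of the 10 members: Bmp4, Bmp5, Bmpr1b, Id2, Id3 and Smad6. Those of Id3 and Id2, which fell together in ESC, and of Bmp5, which fell in NPC, are shown from 250 bases before the start site to 50 bases from it. Capitals mark the SMAD box CAGAC, on either strand (GTCTG on the other), and the palindromic GC-rich SMAD element GGCGCC. Id3 lies at chr4:136143572-136143871 on the + strand, Id2 at chr12:25096043-25096342 on the - strand and Bmp5 at chr9:75775115-75775414 on the + strand.
Id3: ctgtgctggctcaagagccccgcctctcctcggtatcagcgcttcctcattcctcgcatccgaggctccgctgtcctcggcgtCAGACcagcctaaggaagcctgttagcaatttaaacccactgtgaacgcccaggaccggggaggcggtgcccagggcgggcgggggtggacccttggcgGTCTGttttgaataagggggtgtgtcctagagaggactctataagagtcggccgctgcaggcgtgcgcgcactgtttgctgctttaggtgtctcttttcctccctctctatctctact
Id2: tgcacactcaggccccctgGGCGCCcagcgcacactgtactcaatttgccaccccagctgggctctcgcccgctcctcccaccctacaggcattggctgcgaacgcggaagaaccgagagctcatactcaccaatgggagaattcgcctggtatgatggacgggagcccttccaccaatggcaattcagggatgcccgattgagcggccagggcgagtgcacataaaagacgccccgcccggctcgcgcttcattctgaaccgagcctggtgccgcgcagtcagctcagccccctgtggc
Bmp5: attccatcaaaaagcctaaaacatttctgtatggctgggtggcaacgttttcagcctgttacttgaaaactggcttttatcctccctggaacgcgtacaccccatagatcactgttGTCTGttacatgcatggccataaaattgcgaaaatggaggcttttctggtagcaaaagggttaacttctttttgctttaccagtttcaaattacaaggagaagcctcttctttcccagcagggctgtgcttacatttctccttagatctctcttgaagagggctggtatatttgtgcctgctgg
Id3 held CAGAC at positions -167 and -68 relative to the start base, counted as 0, Id2 held GGCGCC at -231, and Bmp5 held CAGAC at -134. CAGAC was in 49.6% of 32851 RefSeq promoters of the same length and GGCGCC in 11.9%. E-boxes (CANNTG), the sites of E proteins, were in 72.3% of the promoters, and among these windows Id2 held 1, CAGCTG at -196, left in lower case. The composite BMP response element, a GC-rich box followed by a GTCT box that can overlap CAGAC on the other strand, was in none of these 3 windows. It occurred once in that of Smad6 and in 0.667% of all promoters. A match in these letters is a description of the window.

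Cell type markers also differed between the ESC groups, where 1.84% of all genes rose and 3.37% fell. The summed level of 9 neural progenitor markers (log2 of the summed unlogged values) was 13.07 to 13.11 in knockdown ESC and 13.29 to 13.46 in control ESC, and 2 of the 9 fell, Pax6 and Slc1a3. For 8 neuron markers the sums were 12.82 to 13.11 in knockdown ESC and 13.12 to 13.20 in control ESC, and 3 of the 8 fell. For 8 neural crest markers they were 10.89 to 11.10 in knockdown ESC and 11.33 to 11.41 in control ESC, and 1 of the 8 fell. The sums of 10 pluripotent cell markers were 16.04 to 16.08 in knockdown ESC and 15.96 to 15.99 in control ESC, and none of the 10 was called. The differences were not limited to neural lists. The sums of 12 endothelial markers were 11.75 to 11.81 in knockdown ESC and 11.55 to 11.63 in control ESC, and 1 of the 12 rose, Pecam1. Pecam1 averaged 10.30 in knockdown ESC and 9.43 in control ESC, while the median change of the 12 was -0.01. The sums of 8 endoderm markers were 10.08 to 10.25 in knockdown ESC and 10.26 to 10.36 in control ESC, and 1 of the 8 fell, Dab2. Those of 7 mesoderm markers were 9.87 to 9.99 in knockdown ESC and 10.01 to 10.28 in control ESC, although the 1 called, Tbx6, rose. The sums of fibroblast and mesenchyme markers and of glia markers overlapped between the ESC groups, and 1 of the 9 fibroblast and mesenchyme markers fell, Tagln. In ESC of either kind at most 1 of these neural and pluripotency markers per list lay below the lower quartile of every array. A sum leans on the highest genes of its list, and some of these were higher in ESC than in NPC. Stmn2, a neuron marker, averaged 12.47 and 12.51 in knockdown and control ESC, against 10.95 and 11.14 in NPC. Foxd3, a neural crest marker, averaged 9.68 and 10.20 in ESC, against 7.96 and 7.85 in NPC. The progenitor marker Vim, at 12.54 and 12.83 in ESC, was higher in NPC. The sums therefore do not measure numbers of such cells. The part of the marker differences in the Id result was not tested.

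In knockdown NPC none of the 3 Id genes was called. Id3 had 10.59, 10.60 and 10.55 in knockdown NPC, against 9.97, 10.34 and 10.36 in control NPC, a difference of 0.36 with a 95% interval of -0.09 to 0.80. The groups did not overlap, as for 14.2% of all genes in this comparison. Id1 had 10.47, 10.65 and 10.19 in knockdown NPC, against 9.81, 10.43 and 9.94 in control NPC, with a difference of 0.37 (95% interval -0.07 to 0.82). These arrays overlapped. Id2 had 12.47, 12.60 and 12.26 in knockdown NPC, against 12.24, 12.54 and 12.35 in control NPC. It averaged 12.44 ± 0.17 in knockdown NPC and 12.38 ± 0.16 in control NPC (SD, n = 3 each), with a difference of 0.07 (95% interval -0.27 to 0.40). Beside these values, 4 of 10 pluripotent cell markers rose in knockdown NPC, where 0.820% of all genes rose. Their summed levels were 12.49 to 13.03 in knockdown NPC and 12.27 to 12.60 in control NPC, and their part in the Id values was not tested.

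The effect of knockdown on Id genes differed between the states. Of the 10 members, 4 passed the test of the difference, NPC effect minus ESC effect, where 1.42% of all genes were called, 1.18% with a higher and 0.245% with a lower effect in NPC. Id3 differed by 1.88 ± 0.29 (SE, adjusted p = 0.0151), and this call held in each of 19 alternatives. Id1 differed by 1.45 ± 0.29 (SE, adjusted p = 0.0377) and Id2 by 0.98 ± 0.22 (SE, adjusted p = 0.0492). The Id1 call was lost without any 1 of 9 arrays (adjusted p = 0.0579 to 0.0998) and held without knockdown NPC replicate 3, control NPC replicate 2 or control ESC replicate 1. The Id2 call was lost without any 1 of 11 arrays (adjusted p = 0.0572 to 0.141), held without control ESC replicate 1, and was lost with each array centred on its median (0.0612).

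**Figure D2:**
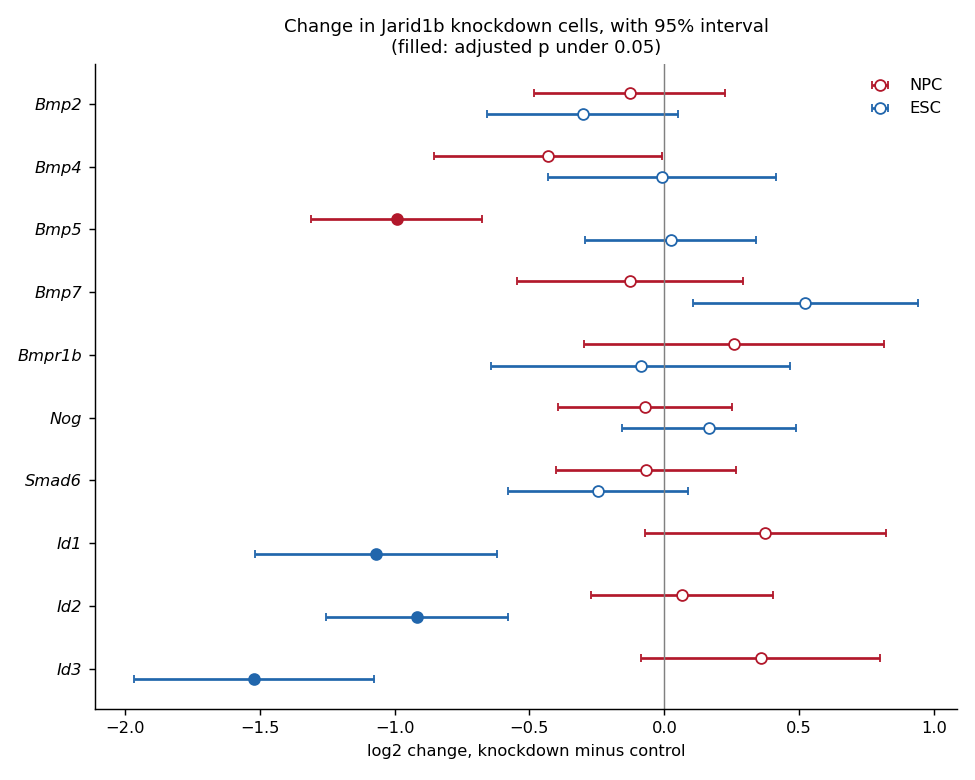
Log2 change in knockdown relative to control cells (horizontal axis) of the 10 genes (rows), in NPC (red) and ESC (blue), with 95% intervals from limma. Filled points passed the test. The blue points of Id1, Id2 and Id3 lie at -1.07, -0.92 and -1.52, and the filled red point of Bmp5 lies at -0.99.

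Between the cell states, the 3 Id genes rose in knockdown cells, while in control cells Id2 alone was called. Over all members, 7 rose and 1 fell of 10 in knockdown cells, where 48.8% of all genes were called, 23.8% higher and 25.0% lower, and the groups did not overlap for 62.4%. In control cells 6 rose and 1 fell of 10, where 48.6% of all genes were called, 23.5% higher and 25.1% lower, and the groups did not overlap for 52.3%. In knockdown cells NPC minus ESC was 0.99 ± 0.21 for Id1, 1.55 ± 0.16 for Id2 and 2.26 ± 0.21 for Id3 (SE, adjusted p = 0.00125, 2.26e-06 and 8.35e-07). In control cells it was -0.45 ± 0.21 for Id1 (SE, adjusted p = 0.0903), 0.57 ± 0.16 for Id2 (SE, adjusted p = 0.00822) and 0.38 ± 0.21 for Id3 (SE, adjusted p = 0.149). The order of Id3 means was knockdown NPC (10.58), control NPC (10.22), control ESC (9.84) and knockdown ESC (8.32), and only the last step passed the test. For Id2 it was knockdown NPC (12.44), control NPC (12.38), control ESC (11.81) and knockdown ESC (10.89), and only the first step did not pass. For Id1, the order was control ESC (10.52), knockdown NPC (10.44), control NPC (10.06) and knockdown ESC (9.45). Control NPC was not called apart from knockdown NPC or control ESC. The control comparison of Id3 became called without control ESC replicate 3, at 0.63 (adjusted p = 0.0127), and that of Id1 without control NPC replicate 2, at -0.64 (adjusted p = 0.0248), or control ESC replicate 1, at -0.65 (adjusted p = 0.0187).

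Among the ligands, Bmp5 was lower in knockdown NPC than in control NPC, and it was the only member called there, 1 of 10, where 1.03% of all genes were called, 0.820% higher and 0.213% lower. Bmp5, a ligand of the group that includes Bmp6 and Bmp7, had 5.96, 6.30 and 6.07 in knockdown NPC, against 6.77, 7.19 and 7.34 in control NPC. The groups did not overlap, as for 14.2% of all genes, and the change was -0.99 ± 0.15 (SE, adjusted p = 0.00586). With the 6 NPC arrays fitted alone the call was lost (adjusted p = 0.0623). In ESC it averaged 5.76 ± 0.06 in knockdown cells and 5.74 ± 0.21 in control cells (SD, n = 3 each), near the lower quartile of each array, which lay between 5.84 and 6.11. Bmp5 in the knockdown NPC arrays (5.96, 6.30 and 6.07) lay near it too. With no detection calls used here, such a level cannot be told from absence, so no fold is given for the fall in NPC, and a fall in ESC could not have been seen.

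Bmp5 rose between the states in control cells, by 1.36 ± 0.15 (SE, adjusted p = 3.69e-06), and was at 0.35 ± 0.15 in knockdown cells (SE, adjusted p = 0.0668). Its knockdown effect in NPC minus that in ESC was -1.02 ± 0.21 (SE, adjusted p = 0.0383), with the ESC effect taken at that floor. Leaving out any 1 of 10 arrays ended this call (adjusted p = 0.0551 to 0.101), which held without control NPC replicate 1 or control ESC replicate 1. The comparison in knockdown cells became called with the 6 knockdown arrays fitted alone (adjusted p = 0.0156), with the replicate block on these arrays (0.0137), with quantile normalization (0.45, adjusted p = 0.0140), with array weights (0.0208), and without control NPC replicate 1 (0.0290) or 3 (0.0489).

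Endothelial, fibroblast and neuron marker sums were also lower in knockdown NPC. Of 12 endothelial markers measured, 0 rose and 5 fell in knockdown NPC, Emcn (-2.58) and Cdh5 (-1.98) among them, where 0.213% of all genes fell. The summed level of the 12 was 10.64 to 10.94 in knockdown NPC and 11.25 to 12.12 in control NPC. By replicate number the endothelial sums were 10.94, 10.87 and 10.64 in knockdown NPC, against 11.25, 11.89 and 12.12 in control NPC. Among the control NPC arrays their order was that of Bmp5, and the mesoderm, endoderm and fibroblast and mesenchyme sums had this order too. Among the knockdown NPC arrays the orders differed, with the lowest Bmp5 (5.96) beside the highest endothelial sum (10.94). Bmp5 lay near the lower quartile in those arrays, so its order there cannot be read. The summed level of 9 fibroblast and mesenchyme markers was 10.72 to 10.97 in knockdown NPC and 11.14 to 11.68 in control NPC, with none of the 9 called. The sums of 8 neuron markers did not overlap either, at 13.41 to 13.46 in knockdown NPC and 13.55 to 13.73 in control NPC, with none of the 8 called. Of the 12 endothelial markers, 1 lay below the lower quartile of every array in knockdown NPC and 0 in control NPC. The part of these cells in the Bmp5 result was not tested.

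Bmp2, Bmp4 and Bmp7 changed strongly between the states and were not called in either knockdown comparison. Bmp7, a ligand also needed in kidney and eye development, averaged 10.36 ± 0.24 in knockdown NPC and 8.24 ± 0.33 in knockdown ESC (SD, n = 3 each). In control cells it averaged 10.48 ± 0.17 in NPC and 7.71 ± 0.34 in ESC (SD, n = 3 each). NPC lay above ESC by 2.12 ± 0.19 in knockdown cells (adjusted p = 8.72e-07) and by 2.77 ± 0.19 in control cells (SE, adjusted p = 6.42e-08).

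Bmp7 had 8.60, 7.94 and 8.18 in knockdown ESC, against 7.89, 7.32 and 7.94 in control ESC. The lowest knockdown array lay just above the highest control array, and 24.2% of all genes had groups that did not overlap. The change of 0.52 ± 0.19 did not pass the test (SE, adjusted p = 0.147).

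Bmp2, a ligand of the same branch as Bmp4, rose between the states by 2.60 ± 0.16 in knockdown cells (adjusted p = 2.67e-08) and by 2.42 ± 0.16 in control cells (SE, adjusted p = 4.71e-08). Its means were 8.40 in knockdown NPC, 8.53 in control NPC, 5.80 in knockdown ESC and 6.10 in control ESC, and the ESC values lie near the lower quartiles of the arrays, so the size of the rise is rough. Its knockdown changes were -0.13 (95% interval -0.48 to 0.23) in NPC and -0.30 (95% interval -0.66 to 0.05) in ESC.

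Bmp4, the ligand best known for sustaining mouse ESC and inducing mesoderm, went the other way between the states and was the only member to fall. It had 9.56, 9.04 and 8.91 in knockdown NPC, against 11.56, 11.28 and 11.16 in knockdown ESC. In control cells it had 9.21, 9.94 and 9.65 in NPC, against 11.53, 11.23 and 11.26 in ESC. The changes were -2.16 ± 0.20 in knockdown cells (adjusted p = 7.94e-07) and -1.74 ± 0.20 in control cells (SE, adjusted p = 5.56e-06), without overlap in either. In ESC its knockdown change was -0.01 (95% interval -0.43 to 0.41), and in NPC it was -0.43 (95% interval -0.85 to -0.01, adjusted p = 0.511).

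Bmpr1b, a type I receptor of neural and skeletal progenitors, rose between the states with the ligands Bmp2 and Bmp7. It averaged 8.23 ± 0.08 in knockdown NPC and 5.59 ± 0.46 in knockdown ESC (SD, n = 3 each), and 7.97 ± 0.60 in control NPC and 5.68 ± 0.12 in control ESC (SD, n = 3 each). The changes were 2.64 ± 0.26 in knockdown cells (adjusted p = 1.60e-06) and 2.29 ± 0.26 in control cells (SE, adjusted p = 5.45e-06). Control NPC replicate 2, at 7.30, was lower than the other control NPC arrays (8.43 and 8.19). Knockdown changed Bmpr1b by 0.26 (95% interval -0.30 to 0.82) in NPC and by -0.09 (95% interval -0.64 to 0.47) in ESC, and neither passed the test. Both ESC means lie below the lower quartile of every array (lowest 5.84). The size of the rise between the states is therefore rough, and a fall in ESC could not have been seen.

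The inhibitors varied least. The 4 group means of Nog spanned 0.42 and those of Smad6 spanned 0.46, against 1.07 to 2.77 for the other 8 members. Nog had 7.48, 7.60 and 7.55 in knockdown NPC and 7.48, 7.68 and 7.68 in control NPC. In ESC it had 7.39, 7.46 and 7.21 in knockdown and 7.60, 7.11 and 6.87 in control cells, so that the groups overlapped in both states. Every Nog value lay below the median of every array (lowest 7.70). With no detection calls used here, its small span cannot be told from that of a gene with little or no expression. In control cells Nog was higher in NPC by 0.42 ± 0.15 (SE, adjusted p = 0.0317), although the groups overlapped. That call was lost with the replicate number as a block on the 6 control arrays (adjusted p = 0.0841), with these arrays fitted alone (0.0899), and without control NPC replicate 2 (0.0849) or 3 (0.0873) or control ESC replicate 2 (0.0930) or 3 (0.156).

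Smad6 averaged 8.48 ± 0.11 in knockdown NPC and 8.55 ± 0.28 in control NPC (SD, n = 3 each). In ESC it averaged 8.09 ± 0.26 in knockdown and 8.34 ± 0.15 in control cells (SD, n = 3 each). Its only call was between knockdown NPC and knockdown ESC, at 0.39 ± 0.15 (SE, adjusted p = 0.0499), and it was lost without any 1 of 9 arrays (adjusted p = 0.0505 to 0.215). It held without control NPC replicate 2, control NPC replicate 3 or knockdown ESC replicate 1. Smad6, itself a target of BMP signals in many cells, did not pass the test in knockdown ESC, with a change of -0.25 (95% interval -0.58 to 0.09).

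**Figure D3:**
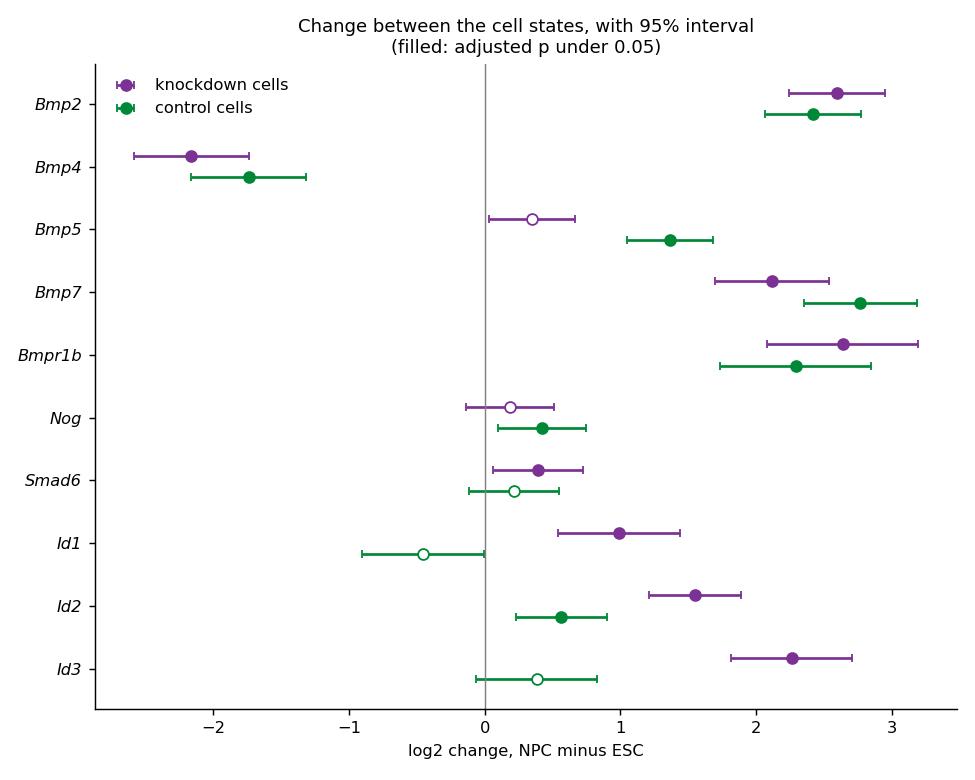
Log2 change in NPC relative to ESC (horizontal axis) of the 10 genes (rows), in knockdown (purple) and control cells (green), with 95% intervals from limma. Filled points passed the test. Bmp2, Bmp7 and Bmpr1b lie above 2 and Bmp4 below -1.5 in both kinds of cell, whereas Id3 lies at 2.26 in knockdown and 0.38 in control cells.

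The wider pathway, with helix-loop-helix partners of Id proteins as 1 of the lists (10 genes), was summarised by 6 lists with 78 measured genes. In knockdown ESC 1 rose and 4 fell, 6.41% against 5.21% of all genes. Msx2, a homeobox target of BMP signals, fell by 0.69 on the log2 scale, with 7.37, 7.82 and 7.44 in knockdown ESC, against 8.13, 8.08 and 8.50 in control ESC (SE 0.16, adjusted p = 0.0292). Skil, which encodes the SMAD corepressor SnoN, changed by -0.64 ± 0.14 (SE, adjusted p = 0.0210), and Fstl1, a secreted follistatin-like protein, by -0.39 ± 0.09 (SE, adjusted p = 0.0263). Neurod1, a proneural factor of the kind that Id proteins antagonise through E proteins, changed by -1.05 ± 0.16 (SE, adjusted p = 0.00446). Neo1, the receptor of the BMP co-receptors of the RGM family, rose by 0.39 ± 0.09 (SE, adjusted p = 0.0272). The Msx2 call was lost without knockdown ESC replicate 1 or 3 or control ESC replicate 3 (adjusted p = 0.101 to 0.156), and that of Skil without knockdown ESC replicate 2 or 3 or control ESC replicate 2 or 3 (0.0618 to 0.117). The Fstl1 call was lost without any knockdown ESC array or control ESC replicate 3 (0.0606 to 0.0956), and that of Neo1 without any of these or control ESC replicate 1 (0.0520 to 0.125). The Neurod1 call held without each array.

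None of the 14 other ligands was called in either knockdown comparison, where 5.21% of all genes were called in ESC and 1.03% in NPC. Of these ligands, Bmp10, Bmp15 and Gdf2 averaged below the lower quartile of every array in all groups. Receptors and SMADs downstream of BMP were not called in knockdown ESC, with Bmpr1a at -0.12, Bmpr2 at -0.15, Smad1 at 0.07 and Smad5 at -0.06. Smad9 averaged 7.41 in knockdown and 7.20 in control ESC. Of the regulators, Bambi averaged 8.73 and 9.05 and Tob1 9.68 and 9.38 in knockdown and control ESC, neither called. The BMP targets Id4, Atoh8 and Msx1 were at 0.15, 0.04 and -0.22 there and the inhibitory SMAD gene Smad7 at -0.05, none of them called. Some other targets moved more without being called. Gata3 averaged 6.93 in knockdown and 7.59 in control ESC, Dlx5 6.57 and 6.94, and Tbx3, in the other direction, 12.02 and 11.47. The median change in knockdown ESC was 0.02 for the 12 other targets, equal to 0.02 over all genes, and -0.17 for the 10 members. The list of other targets includes Stat3 and Zfp423, and whether its genes are BMP targets in these cells was not tested. In knockdown NPC 1 of the 78 genes was called, 1.28% against 1.03% of all genes. It was Dlx3, a homeobox gene of the ectoderm, which rose by 0.72 ± 0.10 (SE, adjusted p = 0.00409), with 8.20, 8.05 and 7.98 in knockdown NPC, against 7.35, 7.44 and 7.27 in control NPC. The knockdown effects in NPC and ESC differed for Msx2 (1.22 ± 0.23, adjusted p = 0.0314), Dlx3 (0.73 ± 0.14, adjusted p = 0.0314) and Skil (0.99 ± 0.20, SE, adjusted p = 0.0362). The Msx2 call was lost without replicate 1 or 2 of knockdown NPC, 2 of control NPC, 1 or 3 of knockdown ESC or 3 of control ESC, and that of Dlx3 without the same arrays except replicate 1 in place of 2 of control NPC. That of Skil held only without replicate 3 of control NPC, 1 of knockdown ESC or 1 of control ESC.

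**Figure D4:**
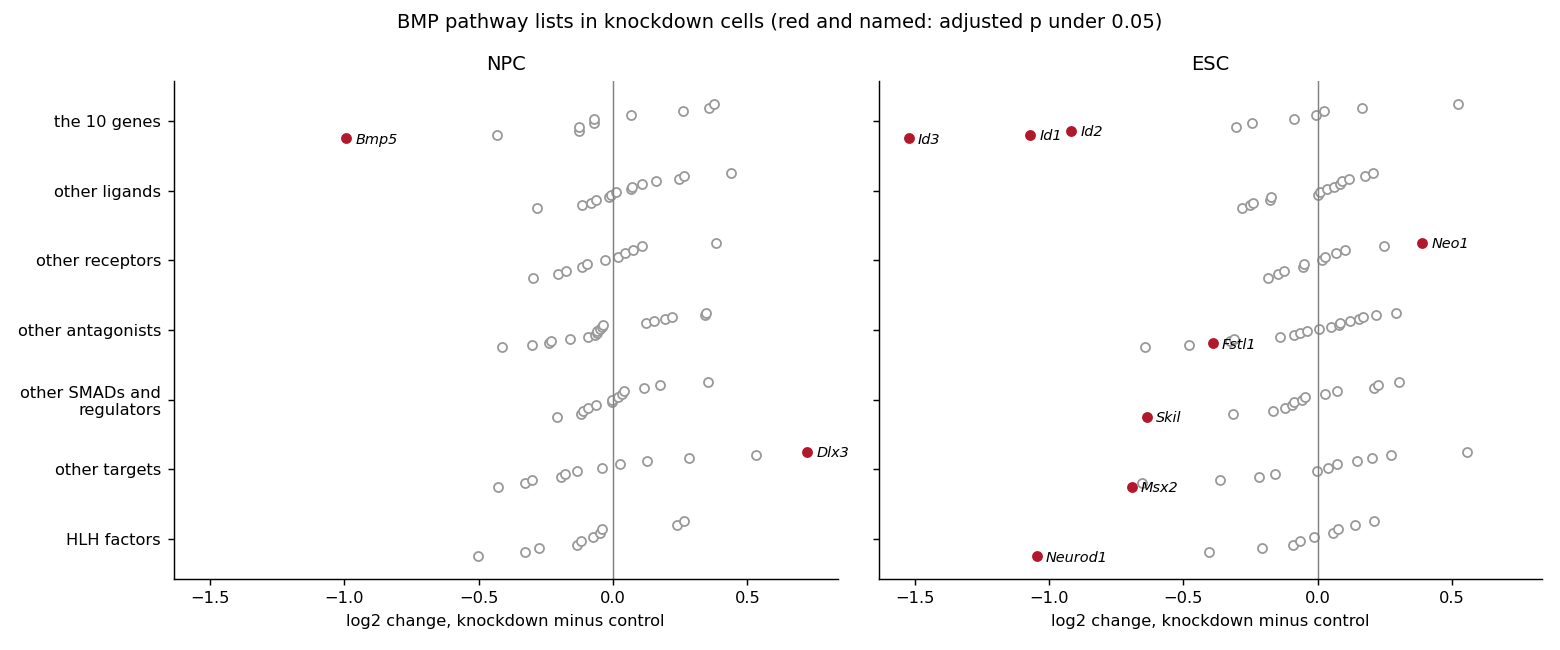
Log2 change in knockdown relative to control cells (horizontal axis) of every measured gene of the 7 lists (rows, genes offset for legibility), in NPC (left) and ESC (right). Red named points passed the test. Bmp5 and Dlx3 are the 2 named points in NPC, and Id3 at -1.52 is the lowest point in ESC.

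Between the states in control cells 45 of the 78 genes rose and 11 fell, and in knockdown cells 46 rose and 10 fell. These are 71.8% of the listed genes in both, where 48.6% of all genes were called in control cells (23.5% higher and 25.1% lower) and 48.8% in knockdown cells (23.8% higher and 25.0% lower). Of 11 receptors and co-receptors, 8 rose and 2 fell in control cells, with a list median of 1.57 against -0.04 over all genes. Rgma, a co-receptor, rose by 2.56 ± 0.09, Acvr2a, a type II receptor, by 2.13 ± 0.09, Neo1 by 1.78 ± 0.09 and Bmpr2, the main type II receptor, by 1.76 ± 0.10 (SE). Of 18 antagonists and modulators, 11 rose and 0 fell, where 23.5% of all genes rose and 25.1% fell, led by Crim1, a membrane protein that binds BMPs (1.83 ± 0.10), and Bmp1, a protease that cleaves chordin (1.94 ± 0.17, SE). Among 13 SMADs and regulators, 7 rose and 4 fell, with Smad5 at 1.67 ± 0.10, Smad1 at 0.75 ± 0.08 and the inhibitory Smad7 at -1.40 ± 0.13 (SE).

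Of the 14 other ligands, 2 rose and 3 fell in control cells between the states, a smaller share than the 48.6% of all genes called there (23.5% higher and 25.1% lower). Bmp10, Bmp15 and Gdf2 averaged 4.80, 5.07 and 5.37 in control NPC and 4.94, 5.27 and 5.63 in control ESC. These lie below the lower quartile of every array (lowest 5.84), where a change could hardly be seen. Gdf3, a ligand of pluripotent cells, changed by -4.62 ± 0.11, and Gdf11, which acts in spinal cord patterning, by 2.89 ± 0.17 (SE). Among 12 other targets 8 rose and 1 fell, with Msx1 at 2.42 ± 0.15, Hey1 at 2.38 ± 0.20, Id4 at 1.34 ± 0.12 and Tbx3, a factor of naive pluripotency, at -3.55 ± 0.19 (SE). Of 10 helix-loop-helix factors 9 rose and 1 fell, with the proneural genes Neurod4 at 4.77 ± 0.19 and Neurog2 at 2.33 ± 0.16 and the E protein genes Tcf12 at 2.20 ± 0.10 and Tcf4 at 1.48 ± 0.09 (SE).

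The genes most like the 5 members with the widest span of group means were sought by Pearson r over the 12 arrays among 3697 genes whose group means spanned at least 1. For Id3 they were the hyaluronan synthase gene Has2 (r = 0.973), the kinase gene Plk2 (r = 0.972) and the peptidase gene Erap1 (r = 0.966). For Bmp4 they were the cadherin gene Cdh3 (r = 0.987), Jup, which encodes plakoglobin (r = 0.986), and the basement membrane gene Nid1 (r = 0.986). For Bmp2 they were Tox (r = 0.995), Gdf11 (r = 0.995) and Irs1 (r = 0.994), for Bmp7 Snrk, Mvb12b and B4galt2 (r = 0.991, 0.991 and 0.990), and for Bmpr1b Dner, Pcdhb2 and Ap3b2 (r = 0.990, 0.989 and 0.988). The arrays fall into 4 groups of one design, so these values mostly describe differences between the groups.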

How the data were processed

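RNA of 12 samples was measured on Affymetrix mouse gene arrays. The authors deposited 1 log2 value for each probe set on each array. The tools they list are affy, RMA and limma, per the submitters' processing notes, which give no versions. RMA subtracts background, equalises array distributions and summarises probes, which compresses differences near the floor. No build or detection call is used for the arrays, and the authors' build is not given in the sources.

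The platform annotation gave 1 symbol to 18786 of 21212 probe sets and several to 6, and it did not list 2420. Symbols were checked through Entrez IDs against RefSeq, GRCm38.p6 (18775 matched, 0 changed). The probe set with the highest mean stood for a gene, giving 18784 genes. A 4-group model on all 12 arrays was fitted with limma 3.58.1 in R 4.3.3 (lmFit, contrasts.fit, eBayes; 8 residual and 4.81 prior degrees of freedom), for 5 contrasts, two-sided. Steps were tested on simulated data.

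The 10 members and all lists were chosen with earlier results of these data known. Named were all members, Kdm5b, up to 4 called members per other list and contrast with the smallest p, and the 3 genes most like each of 5 members. Fabp7, Id4 in ESC and genes with values beside uncalled lists were chosen after their values were seen. Replicate numbers come from the titles: same-numbered control NPC and control ESC arrays deviated together (correlations 0.266, 0.286 and 0.334), and no other contrast had all 3 above 0.1. Deviations within a group cancel out, so the 3 values are not independent and do not establish pairing. The control contrast was taken as possibly paired. Its reported values come from the model without the block, and the blocked value is given where it changes a call. Alternatives were another normalization or centring, a dim filter, another prior, array weights, averaged probe sets, fewer arrays, a replicate block and leaving out each array. The number of arrays limits the precision.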

Additional observations from a re-analysis of the deposited data

Results flagged for a closer look

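The effect of Jarid1b knockdown differed between NPC and ESC, by a test of the difference itself, for 4 of the 10 genes. Over all genes 1.42% were called, 1.18% with a higher and 0.245% with a lower effect in NPC. The 10 genes were chosen with earlier results of these data known. The difference, NPC effect minus ESC effect, was 1.88 for Id3, 1.45 for Id1, 0.98 for Id2 and -1.02 for Bmp5 (log2, adjusted p = 0.0151, 0.0377, 0.0492 and 0.0383). The calls of Id1, Id2 and Bmp5 were lost without most single arrays, while that of Id3 held without each. The Id genes had lower values in all 3 knockdown ESC arrays, with NPC differences of 0.36, 0.37 and 0.07 that were not called. Bmp5 had lower values in all 3 knockdown NPC arrays, with an ESC difference of 0.02 that was not called. Its ESC means (5.76 in knockdown and 5.74 in control cells) lie below every array's lower quartile (lowest 5.84), so a fall in ESC could not have been seen, and the difference does not show that knockdown acts differently on Bmp5 in ESC. The targeted gene was itself lowered to a different degree, by a difference of 0.96 between the effects (adjusted p = 0.0172, lost without knockdown NPC replicate 2 at 0.0512 or control ESC replicate 3 at 0.0591), and its part in these results was not tested.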

How the results depend on the processing

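The falls of Id3 and Id2 in knockdown ESC held in all 21 alternatives and the Id3 difference between states in all 19. Of all genes, 979 were called in knockdown ESC, against 2887 with array weights, 500 with only the arrays compared and 396 with a replicate block on the arrays compared; 194 were called in knockdown NPC, against 29 with only the arrays compared and 57 with the block on them. For the difference between states 267 were called, against 955 with array weights and 152 with the block on 12 arrays. In the other pathway lists 5 were called in ESC (11 with array weights, 2 with only the arrays compared, 1 with the block), 1 in NPC (2 with quantile normalization, 3 with median centring, 3 with array weights, 0 with the block) and 3 for the difference (6 with array weights). Of the 10 genes, 1 was called in NPC and 0 with only the arrays compared or with the filter on dim probe sets, which removes Bmp5 and Nog. Leaving out single arrays gave 193 (without control ESC replicate 3) to 1536 genes in ESC (without control ESC replicate 1), 83 to 247 in NPC, and 35 (without knockdown NPC replicate 2) to 546 for the difference (without control ESC replicate 1). It gave 1 to 6, 1 to 2 and 0 to 4 calls in the pathway lists, and 2 to 3, 1 to 1 and 1 to 4 among the 10 genes. The replicate block on 12 arrays ended the Bmp5 difference (adjusted p = 0.0556) and gave calls to Bmp7 in ESC (0.0309) and Id1 between control states (0.0473), and the block on the arrays compared ended the Dlx3 call in NPC (0.0585). In the possibly paired comparison of control NPC with control ESC it ended the Nog call and no other call among the 10 genes. Quantile normalization ended the Id2 difference (0.0681) and the Smad6 call (0.106, and 0.0611 with median centring), and array weights gave a call to Id1 between control states (-0.76, 0.00640). Some changes that were never called turned sign. That of Bmp4 in ESC was 0.0204 with quantile normalization, 0.0035 with median centring, 0.026 with array weights and -0.119 to 0.0875 without single arrays, and that of Bmp5 in ESC was -0.0222 with quantile normalization and -0.0835 to 0.121 without single arrays. Without single arrays, Bmpr1b in ESC ranged from -0.353 to 0.0477 and in NPC from -0.0787 to 0.489, Bmp7 in NPC from -0.232 to 0.0038, Id2 in NPC from -0.0123 to 0.156, Smad6 in NPC from -0.228 to 0.0427, and the Bmp2 difference from -0.008 to 0.375. The cause was not tested for any of these. With 3 arrays a group, small changes and genes near the array floor (Bmp5, and Bmp2 and Bmpr1b in ESC) are poorly resolved, as is the dim gene Nog.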
